A study of Mus musculus with 10 samples.

Results

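The genes described here form the switch that drives a cell into division: the B-type cyclins Ccnb1, Ccnb2 and Ccnb3, the kinase Cdk1, the activating phosphatases Cdc25a, Cdc25b and Cdc25c, and the inhibitory kinases Wee1, Wee2 and Pkmyt1. They were chosen by name, and all 10 were found among the 35501 genes to which the transcript values could be assigned. Each library is one mouse oocyte arrested in metaphase of the second meiotic division (metaphase II), ready to be fertilised. There were 5 oocytes that had been exposed to TubA, at 0.1 µg/mL for 16 h, and 5 labelled control. The labels do not expand the name TubA, which commonly stands for tubastatin A, a compound that inhibits the deacetylase HDAC6. Both groups share everything else the labels give: ICR mice of 6 to 8 weeks, fully grown oocytes taken from ovaries at the germinal vesicle stage, and maturation for 16 h in M16 medium at 37 °C in 5% CO2. The labels name no vehicle for the controls, no animal and no culture. An n of 5 therefore counts oocytes, and every p-value rests on the spread between these oocytes alone, part of which may be technical. Values are TPM, an abundance per transcript length that sums to the same total in every library. TPM keeps no sequencing depth, so the depth is unknown and no counting interval is given.

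CDK1 is a kinase that works only when bound to a cyclin, and cyclin B with CDK1 is the activity known as maturation promoting factor. WEE1-type kinases hold the pair inactive by phosphorylating CDK1, and CDC25 phosphatases remove those phosphates. In a fully grown oocyte the brake holds the cell in prophase, and in a maturing oocyte the brake is released. In the metaphase II egg the activity is kept high until fertilisation, when cyclin B is destroyed. Mature oocytes make almost no new RNA, and many stored messages are controlled by the length of their poly(A) tail. A message level is therefore not a protein level. The libraries were made by copying polyadenylated RNA, so TPM compared between genes may depend on tail length as well as amount.

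The site on which the kinases and phosphatases act is shown first, since it is what ties the genes together. The stretch below covers codons 8 to 22 of Cdk1-202, the transcript that held most of the Cdk1 signal (GENCODE M21, GRCm38, minus strand). The capitals mark codons 14 and 15, for the threonine and tyrosine that receive the inhibitory phosphates, at chr10:69346224-69346229.
Cdk1-202: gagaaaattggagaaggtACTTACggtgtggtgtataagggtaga

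Because poly(A) tails matter in this cell, the 3′ ends of the main transcripts are shown next, as the 30 bases around the poly(A) signal. Capitals mark the signal AATAAA or ATTAAA, and the element TTTTAT, known as a cytoplasmic polyadenylation element, where it falls in the same window. Both signals, that element and its variant TTTTAAT were searched on the transcript's own strand in its last 100 bases. Their letters can overlap, but do not in the windows shown.
Ccnb1-201 (chr13:100778656-100778685, minus strand): ctttatgttgctAATAAAcatagttttcga
Ccnb2-201 (chr9:70407693-70407722, minus strand): gtattgaaggaaAATAAAgctattgatcta
Ccnb3-201 (chrX:6979654-6979683, minus strand): tttaaaaaatttAATAAAatacaatggtta
Cdc25a-201 (chr9:109893861-109893890, plus strand): gcaggctctgcaAATAAAagtgatcttgaa
Cdc25b-201 (chr2:131198463-131198492, plus strand): gggccttggttcAATAAAgcactgagcaag
Wee1-201 (chr7:110143247-110143276, plus strand): attgtctggtgtATTAAAagtcattccgtg
Wee2-201 (chr6:40466776-40466805, plus strand): cagatcattgtaAATAAAgaTTTTATctta
Pkmyt1-201 (chr17:23736671-23736700, plus strand): acttccgtgtctAATAAAaagtaatgcgtc
Of the main transcripts of the 10 genes, 8 held AATAAA in the last 100 bases, the one not shown being Cdc25c-201, and Wee1-201 held ATTAAA, while Cdk1-202 held neither. Among 39481 protein-coding transcripts with a 3′ UTR of at least 100 bases, 57.2% held AATAAA and 70.7% held either signal. In the same window, TTTTAT or TTTTAAT was found in 2 of the 10, Ccnb3-201 and Wee2-201, against 17% of all 39481. Bases further upstream were not searched, as in Ccnb1-201, whose 3′ UTR is 1028 bases long. In Wee2-201 the last such element began 18 bases before the annotated end, and in Ccnb3-201 68 bases before it. A match is a run of letters, and these files hold no measure of tail length.

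The cells were checked against markers before the genes were read. The oocyte growth factor Gdf9 averaged 6343 ± 845 TPM in TubA oocytes and 5587 ± 812 TPM in control oocytes (SD, n = 5 each, as for every mean below). The egg coat gene Zp3 averaged 2809 ± 3082 TPM in TubA and 2592 ± 1989.6 TPM in control oocytes, so its mean says little. Mos, the kinase that maintains metaphase II arrest, averaged 352 ± 71.2 TPM in TubA and 309.6 ± 38.9 TPM in control oocytes. The 11 cumulus and granulosa markers summed to 13.4 to 25.4 TPM in TubA and 15.6 to 22.5 TPM in control oocytes, with Foxl2 and Amh listed at 0 in all libraries. Cyp19a1 was the highest of them, at 12.6 ± 3.79 TPM in TubA and 10.5 ± 2.60 TPM in control oocytes. Nr5a2 averaged 5.14 ± 1.30 TPM in TubA and 6.49 ± 1.48 TPM in control oocytes. The 8 theca and stroma markers summed to 5.89 to 14.7 TPM in TubA and 4.85 to 20.5 TPM in control oocytes. The 8 blood, immune and endothelial markers summed to 25.02 to 41.3 TPM in TubA and 23.7 to 58.4 TPM in control oocytes, with Hbb-bt listed at 0. Pecam1 was the highest of these, at 25.7 ± 5.69 TPM in TubA and 26.4 ± 10.6 TPM in control oocytes. By clustering on the correlation over all tested genes, the libraries fell into 2 sets that cross the treatment and that no label names: set A holds TubA 1 and 2 with control 1 to 3, and set B holds TubA 3 to 5 with control 4 and 5. The sets are not sharply apart, with r from 0.909 to 0.961 for pairs within a set and from 0.861 to 0.942 for pairs between sets. With so few oocytes a set, TubA and control did not overlap for 18.6% of all genes in set A and 12.7% in set B. The members' counts were 2 of 10 in set A, Cdc25a and Pkmyt1, and 1 of 10 in set B, Ccnb3, near those shares. Values within the sets are given below where they bear on a gene.

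Across the members, no gene passed the test for TubA against control. In limma with Benjamini-Hochberg adjustment over the 11664 genes that averaged 1 TPM or more, 0 of the 10 members were called, against 0.00857% of all genes, a single gene. At an unadjusted p under 0.05 the count was also 0 of 10, against 2.51% of all genes. The groups overlapped for all 10 members, whereas 0.454% of all genes had groups that did not overlap. The differences were 5 positive and 5 negative, with 48.6% negative over all genes. Their median was 0.01 on the log2(TPM + 1) scale, and the median of all genes was also 0.01. For 7 members the 95% interval lay within a 2-fold change of TPM + 1 either way, as for 57.0% of all genes tested. The exceptions were Cdk1, Cdc25a and Pkmyt1. This scale understates changes of a low gene such as Wee1, so its interval in TPM is wider.

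**Figure D1:**
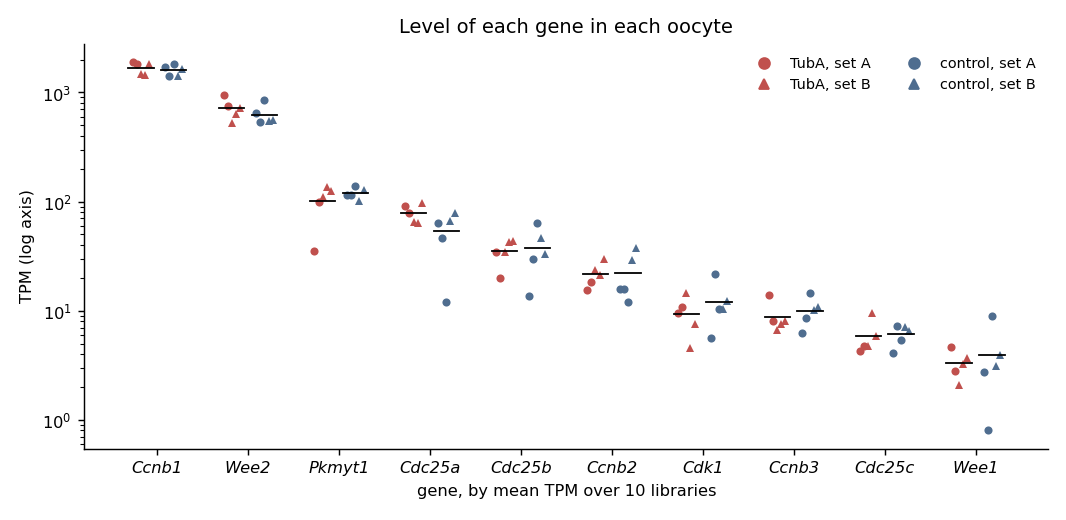
Level of each gene in each oocyte in TPM, on a log axis, with the genes ordered by mean; TubA oocytes stand left of control oocytes, bars are group means, and circles and triangles mark library sets A and B. Ccnb1, Wee2 and Pkmyt1 stand apart from one another in level, and the groups overlap for every gene.

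The levels spanned a wide range, and the 3 genes of highest mean kept the same order among themselves in every oocyte. Ccnb1 was highest, then Wee2, then Pkmyt1, and the ranges of these 3 over the 10 libraries did not overlap. Below them by mean came Cdc25a, Cdc25b, Ccnb2, Cdk1, Ccnb3, Cdc25c and Wee1, where each gene's range overlapped that of its neighbour. Cdk1 and Ccnb3 could not be ordered at all, since Cdk1 was the higher of the pair in 5 of 10 libraries. Pkmyt1 exceeded Cdc25a in 9 of 10, the exception being TubA 1, at 35.6 TPM for Pkmyt1 and 91.7 TPM for Cdc25a.

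Among the cyclins, Ccnb1 made up nearly all of the message. Ccnb1 encodes cyclin B1, the main activating subunit of CDK1. It stood at 1888, 1818, 1484, 1435 and 1821 TPM in TubA oocytes, against 1719, 1424, 1842, 1417 and 1643 TPM in control oocytes. The groups cover the same span, and with a coefficient of variation of 11.7% over the 10 oocytes Ccnb1 was the steadiest of the members. It ranked 79 among the genes tested. The difference was 0.07 on the log2(TPM + 1) scale (95% interval -0.24 to 0.37, adjusted p = 0.99994, limma). Ccnb1 shares sequence with several pseudogenes. The closest, Ccnb1-ps, holds 22.9% of its 31-base words, but none of the 4 nearest copies exceeded 1.19 TPM in any library.

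Ccnb2, encoding cyclin B2, which can stand in for cyclin B1 in the first meiotic division of mouse oocytes, was far lower. Its values were 15.5, 18.4, 23.4, 21.3 and 29.6 TPM in TubA oocytes and 16.0, 15.7, 12.1, 29.0 and 37.3 TPM in control oocytes. The groups overlap, but the library sets do not: set A spans 12.1 to 18.4 TPM and set B 21.3 to 37.3 TPM. Ccnb2 was the 1 member of 10 with this separation, which 5.14% of all tested genes share. The difference between treatments was 0.07 on the log2(TPM + 1) scale over all libraries, and 0.21 and -0.41 within sets A and B.

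Ccnb3 encodes cyclin B3, which mouse oocytes need to leave metaphase of the first division. It stood at 13.8, 8.10, 6.69, 7.50 and 8.01 TPM in TubA oocytes and 6.18, 8.51, 14.5, 10.2 and 10.7 TPM in control oocytes. One oocyte of each group was near 14 TPM and the others were lower, with a difference of -0.16 (95% interval -0.77 to 0.45). The difference was 0.19 within set A and -0.45 within set B, where TubA oocytes spanned 6.69 to 8.01 TPM and control oocytes 10.2 to 10.7 TPM, and -0.03 without control 3. As a share of the summed cyclin B message, Ccnb1 took 98.0 to 98.6% in TubA oocytes and 97.2 to 98.7% in control oocytes. Ccnb1 exceeded Ccnb2 by 61.5 to 122-fold in TubA and by 44.0 to 152-fold in control oocytes.

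Cdk1, the catalytic kinase without which mouse oocytes do not resume meiosis, had a low message level beside its cyclin. It stood at 9.54, 10.9, 14.5, 4.51 and 7.63 TPM in TubA oocytes and 5.66, 21.6, 10.4, 10.4 and 12.2 TPM in control oocytes. The highest oocyte was a control and the lowest was treated with TubA, but the ranges overlap over most of their length. The means were 9.41 ± 3.72 TPM in TubA and 12.1 ± 5.86 TPM in control oocytes. The difference was -0.30 (95% interval -1.08 to 0.49, adjusted p = 0.99994, limma), so the interval reaches past a 2-fold decrease. It was -0.07 without control 2 and -0.09 without TubA 4. Ccnb1 TPM exceeded Cdk1 TPM by 102 to 319-fold in TubA oocytes and by 66.0 to 304-fold in control oocytes.

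The Cdk1 message was mostly the short form. Cdk1-202 has an additional untranslated exon of 91 bases and a 3′ UTR of 174 bases, and held 90.6% of the Cdk1 TPM. Cdk1-201 also has 891 coding bases, but a 3′ UTR of 3352 bases. It averaged 0.0664 TPM in TubA and 0.0773 TPM in control oocytes, and is named although it falls under the 5% share set for naming transcripts. Cdk1-204, a transcript annotated with a retained intron, held 8.51% and was below 1 TPM on average, so it was not tested.

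Among the phosphatases, Cdc25a led and had the largest difference of any member. Cdc25a encodes a phosphatase best known from the mitotic cycle. It stood at 91.7, 77.8, 65.5, 63.5 and 97.0 TPM in TubA oocytes, against 63.4, 46.5, 12.1, 66.6 and 77.9 TPM in control oocytes. The TubA oocytes lay in the upper part of the whole range, and control 3 lay far below every other oocyte. The means were 79.1 ± 15.1 TPM in TubA and 53.3 ± 25.6 TPM in control oocytes, a difference of 0.77 (95% interval -0.14 to 1.68, unadjusted p = 0.091, adjusted p = 0.99994, limma). Without control 3 the difference was 0.31 (unadjusted p = 0.155 by limma). Within set A, where control 3 lies, the spans were 77.8 to 91.7 TPM in TubA and 12.1 to 63.4 TPM in control oocytes. Within set B the spans were 63.5 to 97.0 TPM in TubA and 66.6 to 77.9 TPM in control oocytes. The limma differences within the sets were 1.32 in A and 0.04 in B, and the difference between the sets was not tested.

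Cdc25b, the phosphatase that mouse oocytes need to resume meiosis, stood at 34.8, 20.1, 34.2, 42.4 and 43.3 TPM in TubA oocytes. In control oocytes it stood at 13.6, 29.96, 63.5, 46.3 and 33.3 TPM. The highest and the lowest oocyte were both controls, and the difference was 0.02 (95% interval -0.77 to 0.82). The gene overlaps Spef1 on the opposite strand, which averaged 0.394 TPM. Cdc25c, a phosphatase that female mice can do without, was low at 4.30, 4.78, 4.75, 9.49 and 5.89 TPM in TubA oocytes. In control oocytes it stood at 4.13, 7.28, 5.39, 7.08 and 6.49 TPM. TubA 4 was the highest and the other 4 TubA oocytes lay within the control range, with a difference of -0.07 (95% interval -0.66 to 0.52). Cdc25c was read from Cdc25c-201 alone and overlaps Gm3550, at a mean of 0.959 TPM, on the opposite strand. Of the summed CDC25 message, Cdc25a took 55.0 to 75.8% in TubA oocytes and 14.9 to 78.1% in control oocytes, with control 3 at the bottom.

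**Figure D2:**
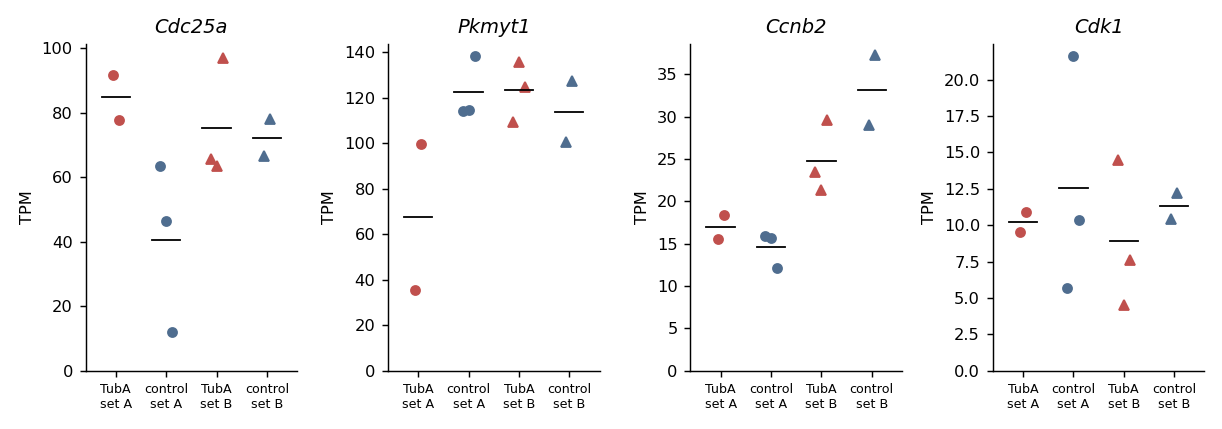
TPM of 4 genes in the TubA and control oocytes of each library set, where points are oocytes and bars are means. Cdc25a and Pkmyt1 have groups that do not overlap in set A, as 18.6% of all genes do, and that overlap in set B, and Ccnb2 is lower in set A than in set B in both groups.

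Among the inhibitory kinases, Wee2 held most of the message. Wee2 encodes WEE1B, the oocyte form of the kinase, which keeps mouse oocytes in prophase and is also needed to leave metaphase II at fertilisation. Its values were 954, 746, 521, 638 and 727 TPM in TubA oocytes, against 642, 534, 855, 548 and 562 TPM in control oocytes. The highest and the lowest oocyte both belong to the TubA group. Means of 717 ± 159 TPM in TubA and 628 ± 133 TPM in control oocytes gave a difference of 0.19 (95% interval -0.23 to 0.60, adjusted p = 0.99994, limma). Without TubA 1 the difference was 0.08. Wee2 ranked 205 among the genes tested. Wee1, the form used by most dividing cells, ranked 8611. It stood at 4.64, 2.80, 2.10, 3.28 and 3.65 TPM in TubA oocytes and at 2.74, 0.80, 8.93, 3.11 and 3.95 TPM in control oocytes. The controls enclosed the TubA values on both sides, with a difference of -0.01 (95% interval -0.88 to 0.86).

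Pkmyt1 encodes MYT1, a membrane-bound kinase that can phosphorylate both the threonine and the tyrosine shown above. It stood at 35.6, 99.5, 109.5, 135.5 and 124.9 TPM in TubA oocytes, against 114.2, 114.4, 138.4, 100.3 and 127.1 TPM in control oocytes. TubA 1 was far below all other oocytes, and the remaining TubA values lay in or just below the control range. The means were 101.0 ± 39.1 TPM in TubA and 119 ± 14.5 TPM in control oocytes, with a difference of -0.36 (95% interval -1.05 to 0.33, adjusted p = 0.99994, limma). Without TubA 1 the difference was -0.02. Within set A the spans were 35.6 to 99.5 TPM in TubA and 114 to 138 TPM in control oocytes, and within set B TubA oocytes spanned 109.5 to 135.5 TPM and controls 100.3 to 127 TPM. Paqr4, which overlaps Pkmyt1 on the opposite strand, averaged 16.4 TPM and reached at most 32.6 TPM. Whether the libraries kept strand is not labelled, and reads of overlapping genes on opposite strands cannot then be told apart.

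**Figure D3:**
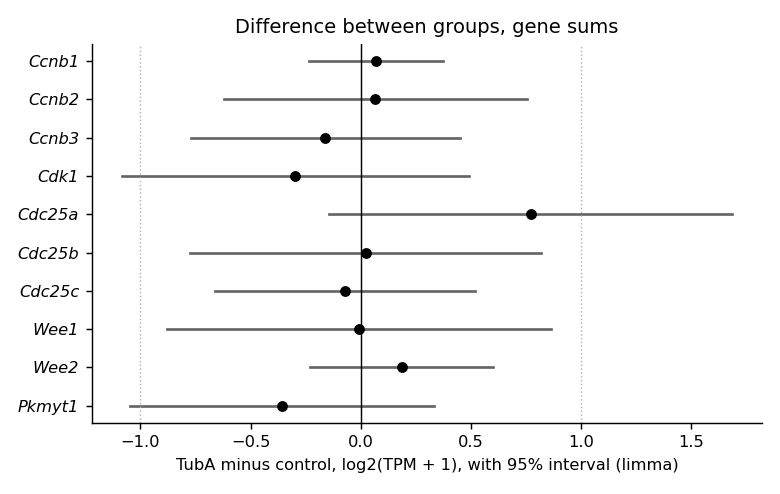
Difference between 5 TubA and 5 control oocytes in log2(TPM + 1) for each gene, as the limma estimate (point) and its 95% interval (bar). Dotted lines mark a 2-fold change of TPM + 1. All 10 intervals cross 0, and Cdc25a, Cdk1 and Pkmyt1 extend past a 2-fold change of TPM + 1.

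The balance between the brake and its release favoured the kinases in every oocyte at the message level. Wee1, Wee2 and Pkmyt1 together exceeded the summed CDC25 message by 7.60, 8.26, 6.06, 6.74 and 5.85-fold in TubA oocytes. In control oocytes the ratios were 9.36, 7.76, 12.4, 5.43 and 5.89-fold. The sums take in transcripts annotated as incomplete, such as Wee2-203 with 44.3% of Wee2 and Cdc25a-207 with 29.95% of Cdc25a. The fold values therefore depend on the TPM given to those transcripts. The groups overlapped, while all 5 oocytes of set A lay at or above 7.60-fold and all 5 of set B at or below 6.74-fold. The sets were found from the expression values of these same libraries, and this separation is a description that was not tested. Wee2 made up 82.1 to 96.0% of the inhibitory kinase message in TubA oocytes and 81.1 to 85.3% in control oocytes, with TubA 1, the oocyte of low Pkmyt1, at the top.

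**Figure D4:**
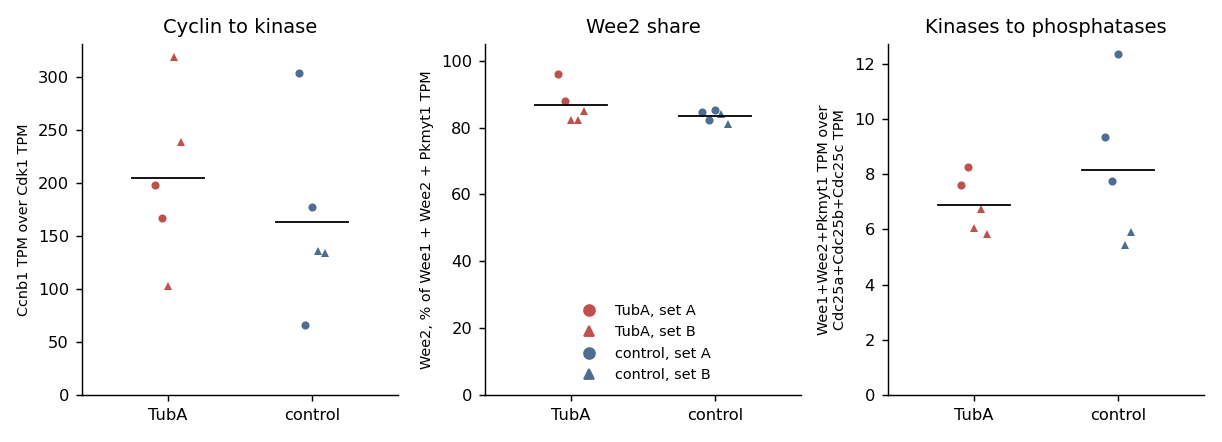
Ratios of message levels in each oocyte: Ccnb1 over Cdk1, the Wee2 share of the inhibitory kinases, and inhibitory kinases over CDC25 phosphatases, with TubA left of control and bars at the group means. In the third panel the circles of set A lie above the triangles of set B in both groups, and the sets were found from the values of these same libraries.

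Per transcript, the files hold 41 transcripts of these genes, of which 17 reached a mean of 1 TPM and were tested. None was called at an adjusted p under 0.05 in limma, where 0.00458% of 21838 transcripts were. A single one, Ccnb1-202, had an unadjusted p under 0.05, against 3.15% of all transcripts. The groups overlapped for all 17, whereas 0.467% of all transcripts had groups that did not overlap. For the make-up of a gene by transcript, limma's diffSplice called 0 of 11 member transcripts, against 0.0122% of 16400, and again 1, Ccnb1-202, at an unadjusted p under 0.05, against 4.08%.

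Ccnb1-202 held 1.16% of the Ccnb1 TPM, so it lies outside the rule for named transcripts and was singled out after its values were seen. It lacks a coding exon of 183 bases (61 codons) that Ccnb1-201 has, at chr13:100783465-100783647 on the minus strand. The exon is shown in capitals between 12 bases of each neighbouring exon, with the junction of Ccnb1-202 under it.
Ccnb1-201: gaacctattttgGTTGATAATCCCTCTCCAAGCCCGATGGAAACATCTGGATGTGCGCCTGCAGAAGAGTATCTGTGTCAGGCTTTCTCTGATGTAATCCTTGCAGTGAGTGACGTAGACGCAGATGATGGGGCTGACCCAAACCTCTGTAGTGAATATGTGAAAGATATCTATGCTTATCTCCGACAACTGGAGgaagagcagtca
Ccnb1-202: gaacctattttggaagagcagtca
The exon-skipping form stood at 2.03, 14.2, 13.2, 5.21 and 10.5 TPM in TubA oocytes, against 41.6, 40.6, 19.3, 10.4 and 33.9 TPM in control oocytes. Controls 1, 2, 3 and 5 lay above every TubA oocyte, and control 4 lay within the TubA range. As a share of Ccnb1 it averaged 0.543 ± 0.315% in TubA and 1.82 ± 0.902% in control oocytes. The transcript's difference was -1.65 on the log2(TPM + 1) scale (95% interval -2.76 to -0.54, unadjusted p = 0.0072, adjusted p = 1, limma). Its usage relative to the other Ccnb1 transcripts differed by -1.70 (unadjusted p = 0.0011, adjusted p = 0.468, limma diffSplice). The difference therefore does not pass the test over all transcripts. Within set A the transcript's difference was -2.28 and within set B -0.99. Ccnb1-201, the full-length form, averaged 1678 ± 212 TPM in TubA and 1578 ± 185 TPM in control oocytes. TPM of transcripts that share most of their exons are estimates of how reads divide between them.

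Wee2 was split between a pair of transcripts. Wee2-201, the complete form, held 51.1% of the Wee2 TPM and Wee2-203 held 44.3%. Wee2-203 begins upstream, at chr6:40439088, with 2 untranslated exons of 58 and 54 bases that Wee2-201 lacks, and is annotated without its 3′ end. Wee2-203 took 44.9 ± 5.79% of Wee2 in TubA oocytes and 42.7 ± 5.46% in control oocytes. Its level differed by 0.26 and that of Wee2-201 by 0.12 (adjusted p = 1 for both, limma), and without TubA 1 that of Wee2-203 was 0.08.

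Cdc25a-201 held 66.3% of the Cdc25a TPM, and Cdc25a-207, annotated without its start, held 29.95%. Cdc25a-201 averaged 53.2 ± 8.14 TPM in TubA and 34.6 ± 18.1 TPM in control oocytes, and Cdc25a-207 averaged 23.9 ± 9.17 TPM in TubA and 15.7 ± 5.02 TPM in control oocytes. Both had positive differences, 0.91 and 0.54 (adjusted p = 1 for both, limma), which were 0.34 and 0.29 without control 3. Cdc25b-201 held 66.8% of Cdc25b, and Cdc25b-202, which lacks a 123-base coding exon at chr2:131191813-131191935, held 30.5%. Cdc25b-202 took 28.4 ± 6.24% of the gene in TubA oocytes and 31.5 ± 7.41% in control oocytes. Ccnb3-201 held 95.4% of Ccnb3 over all libraries, at 91.7 ± 7.42% in TubA oocytes and 99.5 ± 1.21% in control oocytes, and went down to 83.0% in 1 TubA oocyte. Pkmyt1-201 held 99.1% of its gene, and Ccnb2, Cdc25c and Wee1 were each read from a single transcript.

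**Figure D5:**
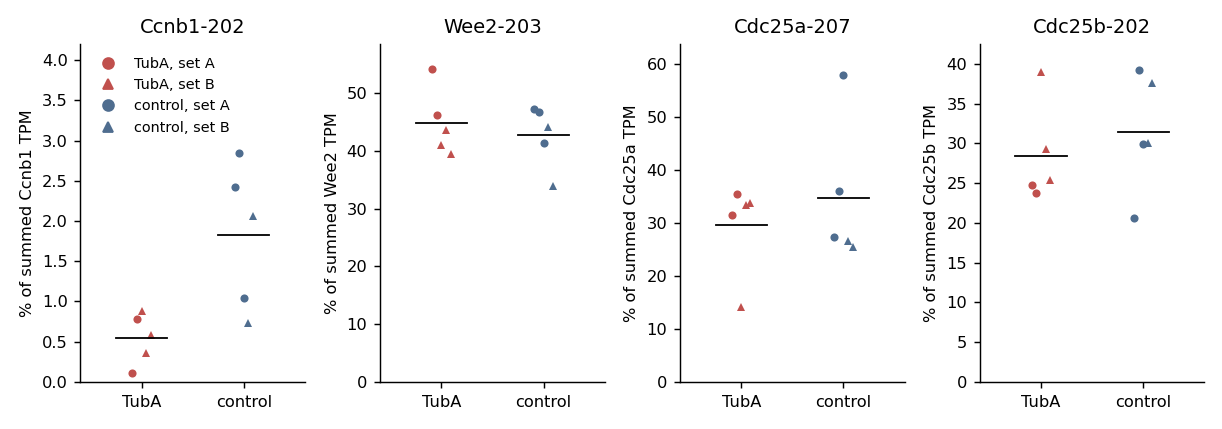
Share of a gene's summed TPM held by its second transcript, in percent, in each TubA oocyte (left) and control oocyte (right) of the panel, with bars at the group means. All shares shown overlap between the groups. Ccnb1-202 spans 0.107 to 0.887% in TubA and 0.734 to 2.85% in control oocytes. Cdc25a-207 spans 14.2 to 35.6% in TubA and 25.5 to 58.0% in control oocytes.

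The genes that act on this switch were read from 5 lists, none of which held a called gene or a gene with an unadjusted p under 0.05. Over all genes tested, 0.00857% were called, 2.51% had an unadjusted p under 0.05 in limma and 48.6% had a negative difference. At such shares, lists this short can hold none without differing from other genes. Of the CDK partners and the CDK-activating kinase, 9 of 10 genes were tested, with 3 positive and 6 negative differences and a median of -0.05. The most abundant were Cks1b, a small subunit that binds CDK1, at 209.9 ± 107.6 TPM in TubA and 199 ± 65.5 TPM in control oocytes, and Ccna2, encoding cyclin A2, at 157 ± 23.6 TPM in TubA and 163 ± 11.03 TPM in control oocytes. Ccna2 was thus more abundant than Ccnb2 and Cdk1 on the TPM scale. Of the CDK inhibitors, 5 of 6 were tested, with a median of 0.04. Cdkn1c, encoding the inhibitor p57, averaged 72.2 ± 16.7 TPM in TubA and 70.1 ± 12.1 TPM in control oocytes, and Cdkn2c averaged 8.15 ± 4.02 TPM in TubA and 6.02 ± 1.43 TPM in control oocytes.

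Upstream of CDC25 and the kinases, all 23 listed genes were tested, 13 with positive and 10 with negative differences and a median of 0.04. Ywhae, a 14-3-3 protein of the kind that binds phosphorylated CDC25, averaged 736 ± 107 TPM in TubA and 749 ± 25.7 TPM in control oocytes. Mapk3, the kinase ERK1 that acts below MOS, averaged 610.3 ± 139.8 TPM in TubA and 677 ± 232 TPM in control oocytes. Of the 8 genes for destruction of cyclin B and WEE1, 6 had negative differences, with a median of -0.04. Ube2s, which extends ubiquitin chains for the anaphase-promoting complex, averaged 570.0 ± 254 TPM in TubA and 831 ± 480 TPM in control oocytes. Cdc20, which brings cyclin B to that complex, averaged 491 ± 73.2 TPM in TubA and 579 ± 41.2 TPM in control oocytes, a difference of -0.25 (95% interval -0.56 to 0.07). Of the Greatwall kinase and its opposing phosphatase, 10 of 11 genes were tested, 7 with positive differences and a median of 0.18, against 0.01 for all genes. Ppp2r1a, the scaffold of that phosphatase, averaged 429 ± 73.5 TPM in TubA and 405 ± 115 TPM in control oocytes, and Arpp19, its inhibitor once phosphorylated, averaged 186 ± 32.6 TPM in TubA and 158 ± 33.5 TPM in control oocytes.

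The genes whose pattern over the 10 oocytes was most like that of Ccnb1, among 5829 genes of at least 10 TPM, were Rbm18 (Pearson r = 0.963), Atad1 (0.960) and Wdr20 (0.958). For Wee2 they were Cers6 (r = 0.985), Kif18a (0.979) and Rictor (0.978). For Cdk1 they were Kmt2c (r = 0.846), Aamp (0.844) and Ube2c (0.829). These are the highest of many correlations over 10 libraries that share library sets, and they are given as a description.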

How the data were processed

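Per the labels' protocols, single oocytes were amplified with Smart-seq2, which copies polyadenylated RNA, and sequenced on an Illumina HiSeq instrument. Per the submitters' processing notes, reads were handled with tools that include Bowtie 0.12.2, on build mm10. What program made the abundances is not given in the sources used here. Deposited by the authors, the files hold TPM per Ensembl transcript, summing to 1000000 in each library, as read from the values. Depth is unknown, and no counts were recovered.

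Transcripts were matched to GENCODE M21 (GRCm38), which gave 113492 matches, and summed per gene. The 1778 that did not match held 0.531 to 0.753% of TPM. TubA was set against control with limma 3.58.1 (R 4.3.3; trend, robust) on log2(TPM + 1), for features averaging 1 TPM or more across the 10 libraries, with Benjamini-Hochberg adjustment at 0.05 over the whole table. This scale understates the change of low genes. Isoform usage was tested with diffSplice. Transcripts were named at 5% or more of their gene, and list genes as the 2 of highest mean TPM unless one was called. Library sets came from complete-linkage clustering of correlations. The members, lists and tests were chosen with earlier results of these data known. Alternatives were other pseudocounts, filters and scaling, array weights, a replicate block, the library set, summing Ccnb1 with its copies, and leaving out each library. Samples were grouped by their titles, and no pair of files was identical.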

Additional observations from a re-analysis of the deposited data

Results flagged for a closer look

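In 6 of 78 groups of 5 oocytes, 1 oocyte stood apart from the rest of its group by more than Dixon's 95% critical value, 0.71 of the group's range. Chance gives about 5% of groups, and the groups share genes and oocytes. Ccnb3 stood at 13.8 TPM in TubA 1, with the next TubA oocyte at 8.10 TPM, and its share of the summed cyclin B message was 0.721% there, with the next at 0.512%. Wee2-201 exceeded Pkmyt1 by 10.8-fold in TubA 1, with the next TubA oocyte at 3.65-fold. The Cdc25c share of the CDC25 message was 8.23% in TubA 4, with the next at 4.66%. Among controls, Cdc25a-207 stood at 6.99 TPM in control 3, with the next at 16.7 TPM, and Wee2 exceeded Wee1 by 668-fold in control 2, with the next at 235-fold.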

How the results depend on the processing

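No member was called under any of the 20 alternatives for genes, nor any member transcript, nor any member transcript for usage under its 13 alternatives. Summed with its copies, Ccnb1 differed by 0.07 as before. Over all genes, where 1 was called, the count was 0 with a pseudocount of 10, with a filter at 5 TPM and within set B, and 12 within set A. Over all transcripts, where 1 was called, the count was 0 with a pseudocount of 10, with a filter at 5 TPM and within set B, 25 within set A, and 0 to 2 when each library was left out in turn. For usage, where 2 were called, the count was 8 with a pseudocount of 0.1, 1 with a filter at 5 TPM, and 1 to 17 when each library was left out, with 17 reached without control 3. The cause was not tested. Deviations of same-numbered oocytes correlated from -0.308 to 0.476, and 4 of 10 oocytes correlated best with their own number. Whether the numbers pair the samples cannot be told from these values. With the replicate block, 0 genes and 0 transcripts were called and 2 transcripts for usage. In this balanced design the block leaves each difference as it was, so no member could change side. The difference of Cdc25a ranged from 0.31 to 0.96 when each library was left out, with an unadjusted p of 0.048 without control 5, and that of Pkmyt1 from -0.50 to -0.02. Ccnb1-202 kept its sign in all 20 alternatives (-2.28 to -0.99), with an unadjusted p under 0.05 in 19 of them, the exception being set B alone, and an adjusted usage p from 0.157 to 0.961. Among the single-gene and single-transcript values, 43 of 464 changed sign with neither value past the threshold. The filters and the replicate block leave gene and transcript level differences as they were, so no sign could change under those alternatives. TPM holds no depth, and the log2(TPM + 1) scale understates changes of a low gene such as Wee1.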

Other observations

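Transcripts annotated with a retained intron or as targets of decay were summed as a share of their gene, and were looked at after their values were seen. They held 4.56 ± 4.30% of Cdc25b in TubA oocytes, with a median of 3.72% and a highest value of 11.02%, and 0.275 ± 0.378% in control oocytes, with a median of 0 and a highest value of 0.736%. The lowest TubA oocyte was listed at 0, so the groups overlapped. Each of these 5 Cdc25b transcripts averaged below 1 TPM. Cdc25b-203, the highest of them, averaged 0.45 TPM and was listed at 0 in 8 libraries, so the share rests on a few low values. For Pkmyt1 the share was 1.26 ± 0.543% in TubA and 0.636 ± 0.237% in control oocytes. For Cdk1 it was 10.9 ± 6.64% in TubA and 7.55 ± 8.48% in control oocytes, with highest values of 21.5% in TubA and 17.8% in control, for Cdc25a 2.33 ± 1.94% in TubA and 3.99 ± 6.84% in control oocytes, and for Ccnb1 0.107 ± 0.0470% in TubA and 0.100 ± 0.0558% in control oocytes. None of these shares was tested.

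Over the 10 oocytes, the 45 pairs of members had a median Pearson r of -0.07 in log2(TPM + 1). The highest was 0.849, between Ccnb1 and Wee2, and the lowest -0.68, between Ccnb1 and Cdc25c. The points share libraries and the fixed total of TPM, and the values are a description.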
